A study of Homo sapiens with 64 samples.

Results

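CCS2-LRCs were the label-retaining cells of RKO and SW48, the CCS2 colorectal cancer (CRC) lines among the 6 human lines of a study of dormant cells in CRC spheroids. They were compared with the LRCs of HT55 and SW948 (CCS1) and of DLD1 and HCT15 (CCS3). All were established CRC lines grown as nonadherent spheroids in serum-free medium with EGF and bFGF, labeled with the division-diluted dye CFSE and sorted by FACS on day 6, the brightest cells as LRCs and the remainder as non-LRCs (BULK in the labels). No drug or genetic change is given for these samples in the labels. The comparison took 8 CCS2-LRC libraries and 16 other LRC libraries out of 64 in the series, with 4 libraries per line and population. Lines were the units: a gene was called when the mean log2 CPM (counts per gene scaled to the library total) of RKO and of SW48 both lay above, or both below, the means of all 4 other lines. Each subtype was thus represented by a pair of lines, and DLD1 and HCT15 are held to come from one patient, so the 4 other lines were not 4 independent tumors. The subtype names came from the study, and the labels themselves give only the line and the population.

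CCS2 is the CRC subtype best known for microsatellite instability, the accumulation of length changes in short repeats when mismatched bases are not repaired. Such tumors often also carry widespread methylation of promoter regions that are rich in CpG dinucleotides, which is known to go with silencing of the genes there. They arise mostly in the proximal colon. RKO and SW48 are both known as microsatellite-unstable lines, and so are DLD1 and HCT15.

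The 24 LRC libraries held 12237225 to 20913455 counts on genes. Fewer genes had a count in RKO-LRCs (18097 to 19683 per library) than in the LRCs of DLD1, HCT15 and SW948 (20226 to 21695). HT55-LRCs (19539 to 20670) and SW48-LRCs (19207 to 20747) overlapped the RKO range. Most of the colorectal epithelium markers were low in RKO. VIL1 was at 0.446 CPM, CDH1 at 1.04, KRT19 at 1.18, CDH17 at 1.68 and EPCAM at 17.3 CPM, while KRT8 (109 CPM) and KRT18 (147 CPM) were present. SW48-LRCs had CDH1 at 617 CPM, EPCAM at 357 CPM and KRT19 at 358 CPM, but VIL1 at only 3.31 CPM. Of the 8 epithelium markers, 6 lay below all 4 other lines in both CCS2 lines (75%, against 14.2% of all genes). Above them lay 0, against 10.8% of all genes. When each library had to separate, 5 were lower, with CDH1 overlapping (5.67% of all genes were lower in this way). Markers of other cell types were mostly absent. Among 9 such markers in the tables, CD3E had 0 counts and COL3A1 had 5 counts in all 24 libraries, and without CD68 the summed level was 0.81 to 19.8 CPM in CCS2-LRCs and 2.69 to 14.3 CPM in the others. CD68, a lysosomal protein of macrophages, was at 1300 ± 160 CPM in RKO, 76.5 ± 15.4 CPM in SW48 and 7.79 to 54.8 CPM in the other lines (SD, n = 4), and PTPRC, the leukocyte antigen CD45, was at 13.8 ± 4.32 CPM in SW48 and at most 0.0279 CPM elsewhere. COL1A1 and PDGFRB, 2 of the 5 such markers tested (40%, against 14.2% of all genes), lay below all 4 other lines, though single libraries overlapped.

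Promoter regions were examined for genes that were near 0 in CCS2-LRCs and expressed in every other line. Whether these sequences have a part in the differences was not tested. Shown for EPDR1 (chr7:37920390-37920689, plus strand) and FUT2 (chr19:48695721-48696020, plus strand) are the 250 bases before and 50 after the start of transcription from RefSeq (GRCh38.p14), 5′ to 3′ on the strand of the gene, with CpG dinucleotides in capitals.
EPDR1: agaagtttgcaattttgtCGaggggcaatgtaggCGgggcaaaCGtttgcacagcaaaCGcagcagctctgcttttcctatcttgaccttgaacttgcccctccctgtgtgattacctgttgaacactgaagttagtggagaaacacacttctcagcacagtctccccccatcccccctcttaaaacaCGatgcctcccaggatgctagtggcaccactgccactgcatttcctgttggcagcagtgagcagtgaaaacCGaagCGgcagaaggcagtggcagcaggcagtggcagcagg
FUT2: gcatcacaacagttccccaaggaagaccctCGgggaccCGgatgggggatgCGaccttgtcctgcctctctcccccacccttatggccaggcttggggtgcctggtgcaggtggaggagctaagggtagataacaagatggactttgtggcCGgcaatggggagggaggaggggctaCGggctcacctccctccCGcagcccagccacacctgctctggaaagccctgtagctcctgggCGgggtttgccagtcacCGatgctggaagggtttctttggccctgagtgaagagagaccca
The windows of EPDR1 and FUT2 held 7 and 8 CpG dinucleotides, numbers that 62.5% and 60.1% of the promoters in the table reached. Both were below the median of 26 for the genes tested here. DNA methylation was not measured.

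EPDR1, encoding an ependymin-related lysosomal protein, and FUT2, the fucosyltransferase that makes the H antigen of secretions, separated the groups completely. EPDR1 (ENSG00000086289, chromosome 7, 37960242 to 37991538 in GRCh37) was at 0 to 0.199 CPM (median 0.0945) in CCS2-LRCs and at 48 to 132 CPM (median 76.3) in the others. FUT2 (ENSG00000176920, chromosome 19, 49199228 to 49209208 in GRCh37) was at 0 to 0.278 CPM (median 0.0945) against 23.2 to 50.7 CPM (median 40.7). No library of one group came near the other group for either gene, but both were named partly for their gaps. CCS2-LRC libraries held 12 counts of EPDR1 in all against 21203 in the others, and 14 of FUT2 against 9789. EPDR1 and FUT2 were among 4 genes of 16029 tested, all lower, that passed edgeR's quasi-likelihood test on counts summed per line (adjusted p = 0.0164 for both), 0.025% of the genes tested, and 0 passed in the higher direction. Before adjustment 2115 genes had p under 0.05, of which 955 were higher and 1160 lower. With DESeq2 on the same sums 415 genes were higher and 892 lower. The adjusted p of both genes rose to 0.094 when DLD1 and HCT15 were merged into 1 line, and without RKO, SW948, DLD1 or HCT15 it lay between 0.0644 and 0.109. Without HT55 it was 0.0391 for EPDR1 and 0.0512 for FUT2. Both genes stayed below all other lines throughout. An exact test over lines could not reach 0.05, since the smallest p for 2 of 6 lines is 0.0667.

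**Figure D1:**
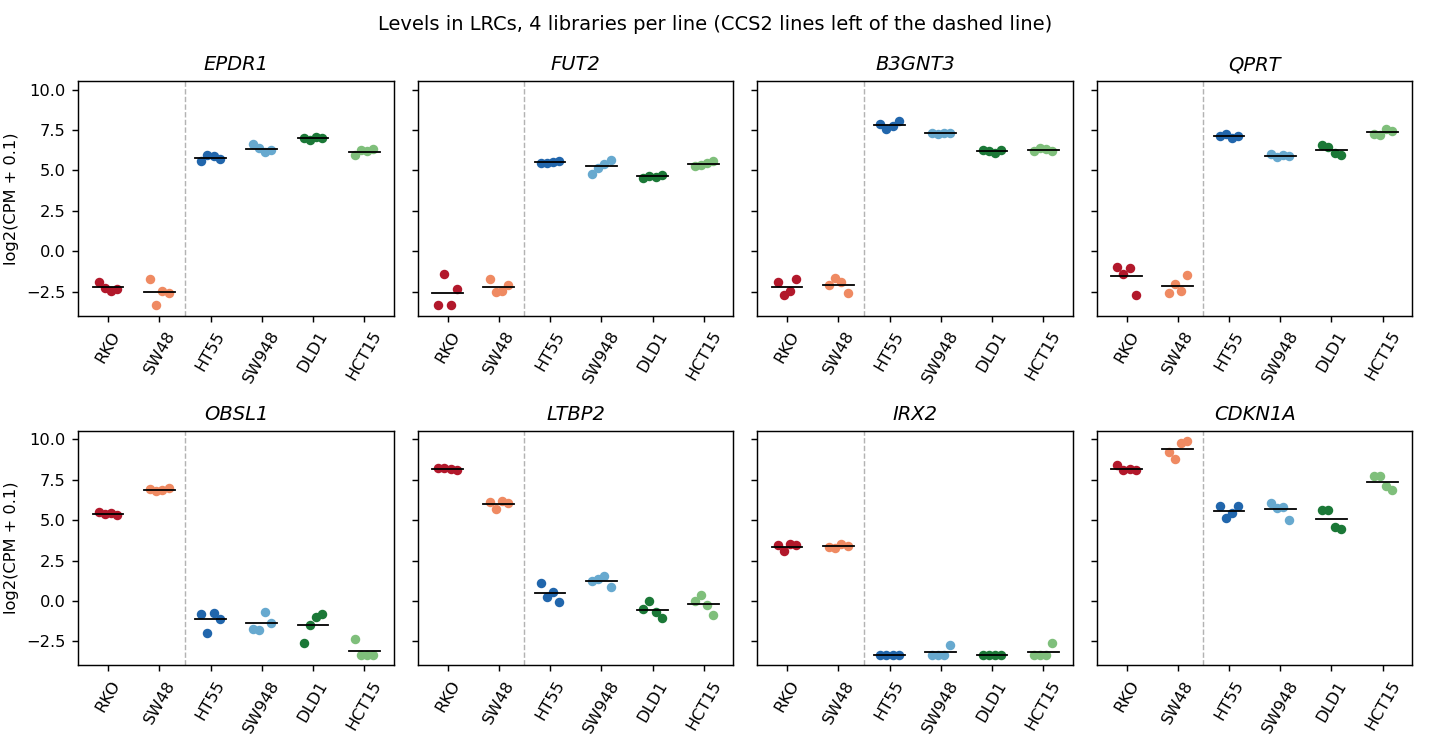
Levels of 8 genes in LRCs as log2(CPM + 0.1), with a point for each of the 4 libraries of a line and a bar for their mean. EPDR1, FUT2, B3GNT3 and QPRT lie near the floor of the axis in RKO and SW48 and at 23.2 CPM or more in every other library, OBSL1, LTBP2 and IRX2 show the opposite split, and for CDKN1A HCT15 is the nearest other line.

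By the line rule, 1726 genes (10.8% of those tested) were higher in both CCS2-LRC lines and 2278 (14.2%) were lower. Without TMM scaling 1274 were higher and 2592 lower, so that the share of higher calls fell from 43.1% to 33%, and the median difference of all genes moved from -0.04 to -0.13 on the log2 scale. Most calls were small: the median distance between the nearest CCS2 line and the nearest other line was 0.29 log2 units for higher and 0.36 for lower genes. A distance of at least 3 log2 units was reached by 17 higher and 121 lower genes, and one of at least 5 by 5 higher and 35 lower genes. When each library had to lie beyond every library of the other group, 663 genes (4.14%) were higher and 909 (5.67%) lower. Libraries were made from sorted cells in bulk, so fewer cells expressing a gene and less RNA per cell cannot be told apart.

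Among lower genes with the widest separation, B3GNT3, a glycosyltransferase of mucin-type glycans, was at 0.0556 to 0.215 CPM (median 0.149) in CCS2-LRCs and 68.7 to 267 CPM (median 118) in the others (adjusted p = 0.0507, edgeR). SELENBP1, a selenium-binding methanethiol oxidase, was at 0 to 0.315 CPM (median 0.118) against 44.2 to 400 CPM (median 82.7). QPRT, an enzyme of NAD synthesis, was at 0.0513 to 0.414 CPM (median 0.206) against 55.7 to 185 CPM (median 112). The groups were far apart in all 3 cases, which were named for their gaps. PLOD2, a collagen lysyl hydroxylase, was at 0 to 0.173 CPM against 20.6 to 142 CPM, and BDKRB2, a bradykinin receptor, at 0 to 0.259 CPM against 11.2 to 29.9 CPM. CACNG4, a calcium channel subunit, had 0 counts in the 8 CCS2-LRC libraries, which allows up to 0.0245 CPM over these libraries (counting error only), and 10.4 to 47.2 CPM in the others. Further members of the 15 with the largest gaps were ILDR1, ACP3, QPCT, PSTPIP2 and KLK1, at line means of at most 0.368 CPM in CCS2-LRCs and at least 8.27 CPM in the others.

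Among higher genes with the widest separation, OBSL1, a cytoskeletal adaptor related to obscurin, was at 39.5 to 128 CPM (median 77.1) in CCS2-LRCs and at 0 to 0.536 CPM (median 0.225) in the others. IRX2, an Iroquois homeobox factor, was at 8.34 to 11.4 CPM against 0 to 0.0627 CPM, with 1203 counts against 2. NKX2-5, a homeobox factor of heart development, was at 7.78 to 18.5 CPM against 0 to 0.263 CPM. Libraries of these genes did not overlap between groups, as for 4.14% of all genes, but the genes were named for their gaps. IRX2 and NKX2-5 met the count filter only through CCS2-LRC libraries. LTBP2, of the latent TGF-beta-binding protein family, was at 50.7 to 304 CPM (median 172) against 0.386 to 2.86 CPM (median 0.996). COL27A1, a fibrillar collagen, was at 35.9 to 91 CPM against 0.473 to 1.71 CPM, and FGD1, an activator of the GTPase Cdc42, was at 22.1 to 77.3 CPM against 0.138 to 0.856 CPM. FGD1 and COL27A1 came nearest to the threshold in the higher direction (adjusted p = 0.0507 for both, edgeR). The lines differed more in others: S100A2, a calcium-binding protein of basal epithelia, was at 2636 CPM in RKO and 94 CPM in SW48, and CD109, a surface co-receptor of TGF-beta, at 37.9 CPM in RKO and 575 CPM in SW48, with the other lines at 3.36 to 9.05 CPM and 0.55 to 3.63 CPM. The long noncoding RNA MIR100HG was at 38.8 CPM in RKO, 94.3 CPM in SW48 and at most 1.4 CPM elsewhere. ZNF556, KCTD12, BATF3, B3GAT1, OPRL1 and the pseudogene RPSAP52 completed the 15. RPSAP52 shares sequence with RPSA, so its counts are uncertain.

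Of 29 tested intestinal lineage transcription factors, 15 (51.7%, against 14.2% of all genes) lay below all other lines in both CCS2 lines and 1, FOXD2, above. Their median difference was -2.67 log2 units against -0.04 over all genes. CDX2, a homeobox factor of intestinal identity, was at 16.8 to 42.6 CPM (median 25.4) in CCS2-LRCs and 140 to 326 CPM (median 285) in the others. Its libraries did not overlap, as for 5.67% of all genes on the lower side. The difference of CDX2 did not pass over lines (log2 fold change -3.21 ± 0.44 SE, adjusted p = 0.13, edgeR). GATA6, an endoderm factor, was at 4.22 CPM in RKO and 0.723 CPM in SW48, against 31.8 to 61 CPM. FOXA3 was at 0.0128 and 0.274 CPM against 4.52 to 40.7 CPM, and PPARG, a nuclear receptor of colonocytes, at 0.107 and 0.76 CPM against 4.44 to 241 CPM. HNF4A split the CCS2 lines: it was at 0.0878 CPM in RKO and 57.3 CPM in SW48, within the 32.2 to 192 CPM of the other lines. CDX1 was not called because HCT15 was also near 0 (0.0162 CPM).

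Of 32 tested enterocyte and columnar genes, 13 (40.6%, against 14.2% of all genes) were lower and 1 higher. Of 24 goblet and secretory genes 12 (50%) were lower and 0 higher. KRT20, the keratin of differentiated colonocytes, was at 0.0716 to 0.518 CPM (median 0.144) in CCS2-LRCs and at 2.47 to 908 CPM (median 246) in the others. The others themselves ranged from 3.32 CPM in HCT15 to 832 CPM in SW948, so the gap to the nearest line was small beside the spread among them (adjusted p = 0.269, edgeR). VIL1, which bundles actin in microvilli, was at 0.446 and 3.31 CPM in RKO and SW48 against 78.4 to 891 CPM, CDH17, the intestinal cadherin, at 1.68 and 27.9 CPM against 259 to 1147 CPM, and LGALS4, a gut galectin, at 0.347 and 0.325 CPM against 3.57 to 867 CPM. AGR2, a disulfide isomerase needed for mucin folding, was at 0.0787 to 0.74 CPM in CCS2-LRCs and 29.2 to 669 CPM in the others, and MUC13, a membrane mucin, at 0.382 and 10.6 CPM against 66.7 to 1034 CPM. FABP1, PHGR1, LYZ and TFF2 were not called, since HCT15, or DLD1 as well, was as low as the CCS2 lines. Keratins as a family were near the share of all genes: of 28 tested, 4 were lower (14.3%) and KRT79 was higher.

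Of 32 tested epithelial junction genes, 19 (59.4%, against 14.2% of all genes) were lower in both CCS2 lines and 0 higher. In 18 of these 19 RKO was the lower line, and in 8 of the 19 SW48 lay within 0.3 log2 units of another line. The median level of the list was 2.26 log2 CPM in RKO, 6.85 in SW48 and 7.26 to 7.65 in the other lines. CDH1, encoding E-cadherin, was at 1.04 CPM in RKO and 617 ± 85 CPM in SW48, next to 678 CPM in SW948. CLDN4, a tight junction claudin, was at 1.17 and 33.4 CPM against 336 to 857 CPM, TJP3, a tight junction scaffold, at 0.332 and 5.77 CPM against 80.3 to 138 CPM, and CGN, cingulin, at 8.22 and 18 CPM against 78.1 to 245 CPM. PKP2, a desmosomal plaque protein, was alike in both CCS2 lines, at 28.5 ± 4.61 CPM in RKO and 36.6 ± 3.39 CPM in SW48 against 136 to 195 CPM (SD, n = 4). AP1M2 was at 0.477 CPM in RKO but at 156 CPM in SW48, and CLDN1 was lower in HCT15 (1.31 CPM) than in SW48 (3.02 CPM).

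**Figure D2:**
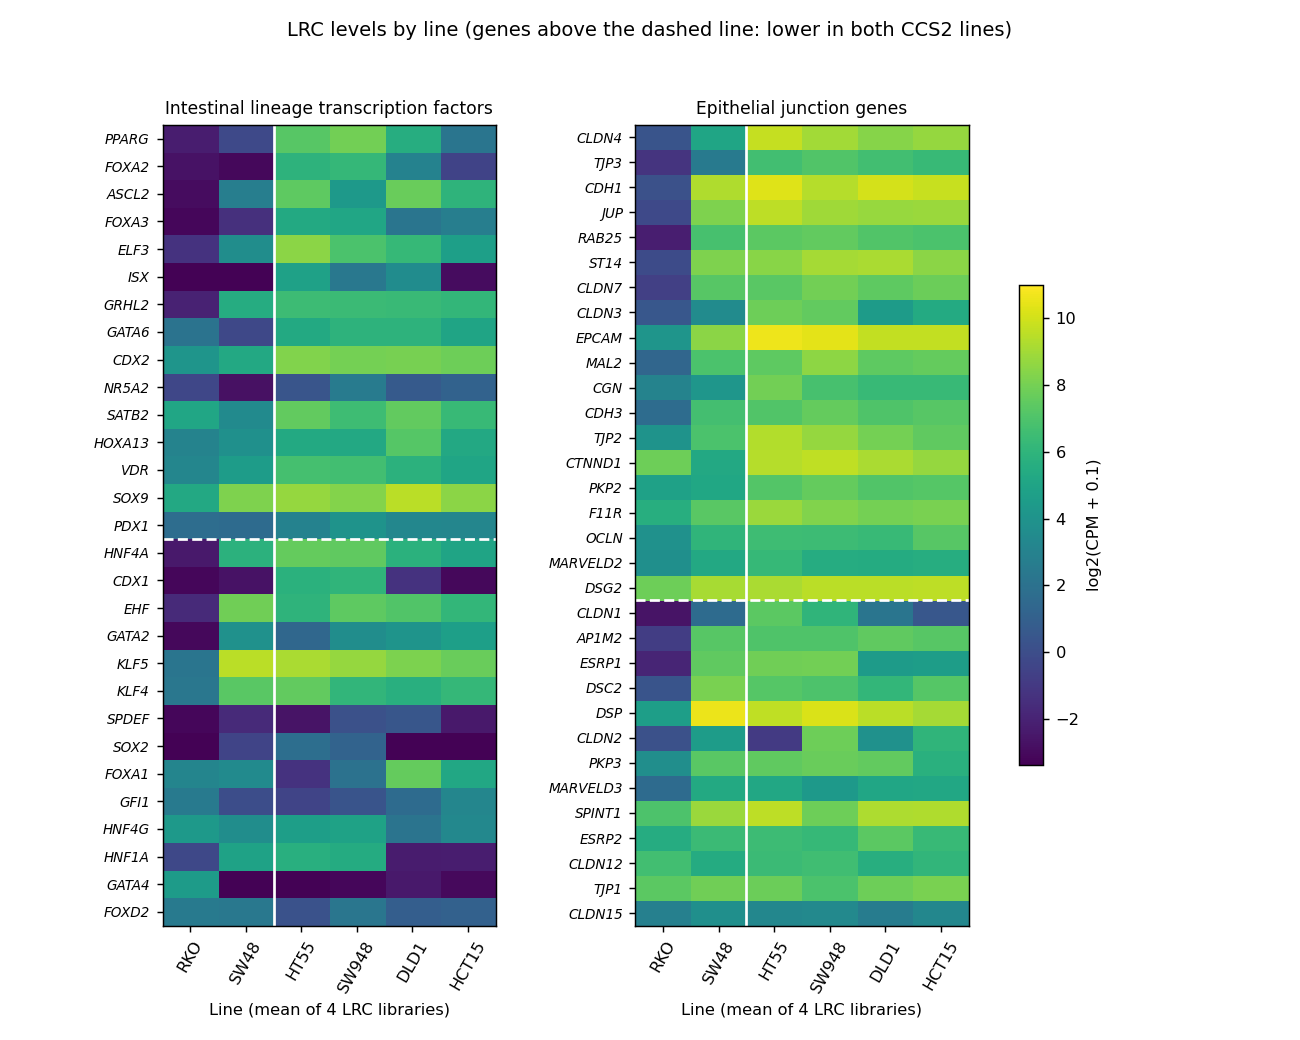
Mean LRC levels, as log2(CPM + 0.1), of the tested intestinal lineage transcription factors (left) and epithelial junction genes (right) in each line, with the CCS2 lines left of the white line. Genes above the dashed line were lower in both CCS2 lines, 15 of 29 on the left and 19 of 32 on the right, and RKO is the darker of the pair for most junction genes.

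The mesenchymal list did not mirror the junction genes. Of 22 tested, 5 were higher and 3 lower (22.7% and 13.6%, against 10.8% and 14.2% of all genes). CAV1, the caveolar coat protein, was at 54.6 and 198 CPM in RKO and SW48 against 1.71 to 31.5 CPM, and ACTA2, smooth muscle actin, at 27.2 and 30.2 CPM against 0.485 to 15.3 CPM. ZEB1, a repressor of CDH1, was at 323 ± 14.9 CPM in RKO but at 1.37 ± 0.727 CPM in SW48, next to 1.24 ± 0.331 CPM in HCT15 (SD, n = 4). VIM was at 24.3 CPM in RKO, 0.428 CPM in SW48 and up to 5.31 CPM (DLD1) in the others, and AXL at 609 CPM in RKO, 2.83 CPM in SW48 and at most 7.45 CPM in the others. TGFBI, a TGF-beta-induced matrix protein, was at 1.25 and 3.34 CPM in RKO and SW48 and 28.1 to 6774 CPM in the others. Over all genes RKO and SW48 differed by a median of 0.59 log2 units, DLD1 and HCT15 by 0.36 and HT55 and SW948 by 0.66. RKO was above all 4 other lines in 4141 genes and SW48 in 3633, of which 1726 were shared. A further 497 genes were above in RKO and below in SW48, and 595 the reverse.

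Among 37 Wnt target and crypt genes, 11 (29.7%, against 14.2% of all genes) were lower and MYC was higher. TDGF1, which encodes the Nodal co-receptor Cripto, was at 0.0553 and 0.0503 CPM in RKO and SW48 against 2.28 to 65.2 CPM. ASCL2, a stem cell factor of the crypt, was at 0.0335 and 6.77 CPM against 19.8 to 208 CPM, and SP5 at 0.833 and 6.19 CPM against 14.5 to 76.7 CPM. SLC12A2 was at 50.3 and 114 CPM against 253 to 1067 CPM. Some Wnt feedback genes divided the CCS2 lines, while NKD1 and APCDD1 were called lower in both. AXIN2 was at 4.73 CPM in RKO and 364 CPM in SW48, within the 186 to 885 CPM of the others, and RNF43, which removes Wnt receptors, at 0.521 and 435 CPM against 169 to 827 CPM. LGR5, the R-spondin receptor of crypt stem cells, had 0 counts in RKO-LRCs and was at 3.3 CPM in SW48, but HCT15 was lower than SW48 (0.214 CPM). PTK7, a co-receptor used as a stem cell marker in CRC, was at 177 CPM in RKO and 265 CPM in SW48, inside the 139 to 658 CPM of the others. MYC was at 449 and 371 CPM against 101 to 271 CPM.

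Few Hedgehog genes separated the groups: of 18 tested, SUFU was higher and IHH lower (5.56% each, against 10.8% and 14.2% of all genes). SUFU, the inhibitor of GLI factors, was at 32.5 to 45.4 CPM (median 36.8) in CCS2-LRCs and 12.2 to 32.5 CPM (median 21.2) in the others, with DLD1 (29.4 CPM) and HCT15 (29.2 CPM) close below (log2 fold change 0.77 ± 0.42 SE, adjusted p = 0.452, edgeR). The receptor PTCH1 was at 58.9 and 125 CPM in RKO and SW48 against 56.1 to 301 CPM. The transcription factor GLI1 was at 4.87 CPM in RKO, 0.482 CPM in SW48 and 0.0139 to 1.57 CPM in the others. Both ligands depended on the line: IHH was at 0.0532 and 0.257 CPM against 0.645 to 112 CPM. SHH was at 0 CPM in RKO and 6.33 CPM in SW48, between DLD1 (2.1 CPM) and HCT15 (7.4 CPM).

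Of 18 CDK inhibitors, cyclins and RB family genes, 4 were higher and 1 lower (22.2% and 5.56%, against 10.8% and 14.2% of all genes). CDKN1A, encoding the CDK inhibitor p21, was at 269 to 933 CPM (median 382) in CCS2-LRCs and 21.5 to 214 CPM (median 55.5) in the others (log2 fold change 2.70 ± 0.71 SE, adjusted p = 0.265, edgeR). CDKN2B was at 204 and 22 CPM against 5.33 to 11.6 CPM, CCND2, cyclin D2, at 297 and 223 CPM against 1.3 to 86.6 CPM, and CCNE1 was the fourth. CDKN1B, encoding the CDK inhibitor p27, ran the other way, at 16.3 to 33 CPM against 72.8 to 113 CPM. Its libraries did not overlap, as for 5.67% of all genes on the lower side. Of 16 ERK feedback genes 2 were higher (12.5%, against 10.8% of all genes) and SPRY1 lower, with FOSL1, an AP-1 factor, at 188 and 123 CPM against 18.3 to 43.4 CPM and PHLDA1 at 748 and 1882 CPM against 362 to 498 CPM. Among 11 EGF receptor family genes and ligands, EGF and TGFA were lower (18.2%, against 14.2% of all genes). TGFA was at 6.51 and 35.5 CPM against 84.9 to 155 CPM. Of 30 BMP and TGF-beta genes 5 were lower (16.7%, against 14.2% of all genes) and SMAD9 higher, TGFBR3 being at 7.93 and 18.2 CPM against 63.3 to 131 CPM. TIMP3, an inhibitor of metalloproteinases, lay below all other lines at 0.0139 and 0.0906 CPM against 0.193 to 43.4 CPM, and THBS1, a matrix glycoprotein, at 0 to 1.47 CPM against 13 to 174 CPM. MGMT, a DNA repair methyltransferase, was near 0 in SW48 (0.0334 CPM) but at 40.1 CPM in RKO. Mismatch repair genes differed between lines of each group. PMS2 was at 12 CPM in RKO and 32.8 CPM in SW48 and at 8.83 to 22.9 CPM in the others, MSH3 at 7.51 and 39.5 CPM against 29.6 to 60.6 CPM, and MSH6 at 108 and 70.3 CPM against 13.2 to 118 CPM, and none of these was called.

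Of 22 MHC class I antigen presentation genes, 5 were higher (22.7%, against 10.8% of all genes) and 1, TAPBP, lower (4.55%, against 14.2%). When each library had to separate, 3 were higher, where 4.14% of all genes were. In non-LRCs 2 of the MHC genes were higher by the line rule, where 10.1% of all genes were. HLA-B was at 508 and 560 CPM in RKO and SW48 against 72.5 to 367 CPM, TAP2, a peptide transporter subunit, at 35.2 and 37.7 CPM against 12.9 to 23.7 CPM, and PSMB8, an immunoproteasome subunit, at 54 and 57.2 CPM against 32.8 to 40.1 CPM. Counts of HLA-B are uncertain because HLA class I genes share sequence. Interferon-stimulated genes were not higher as a group: of 37 tested, 1 was higher and 6 lower (16.2%, against 14.2% of all genes). OAS1, the RNA-sensing oligoadenylate synthetase, was at 1.33 to 2.58 CPM (median 1.71) in CCS2-LRCs and at 19.7 to 332 CPM (median 71.8) in the others. BST2, tetherin, was called only because SW48 (0.782 CPM) lay above the others (at most 0.266 CPM), while RKO was at 322 CPM. HOX genes were called in both directions, 6 higher and 6 lower of 35 (17.1% each, against 10.8% and 14.2% of all genes). HOXC10 was at 5.72 and 24.1 CPM against 0.0584 to 1.19 CPM and HOXB2 at 20.6 and 14.8 CPM against 0.535 to 3.56 CPM, whereas HOXA13, the HOX gene of the hindgut, was at 8.18 and 14 CPM against 38.6 to 148 CPM.

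**Figure D3:**
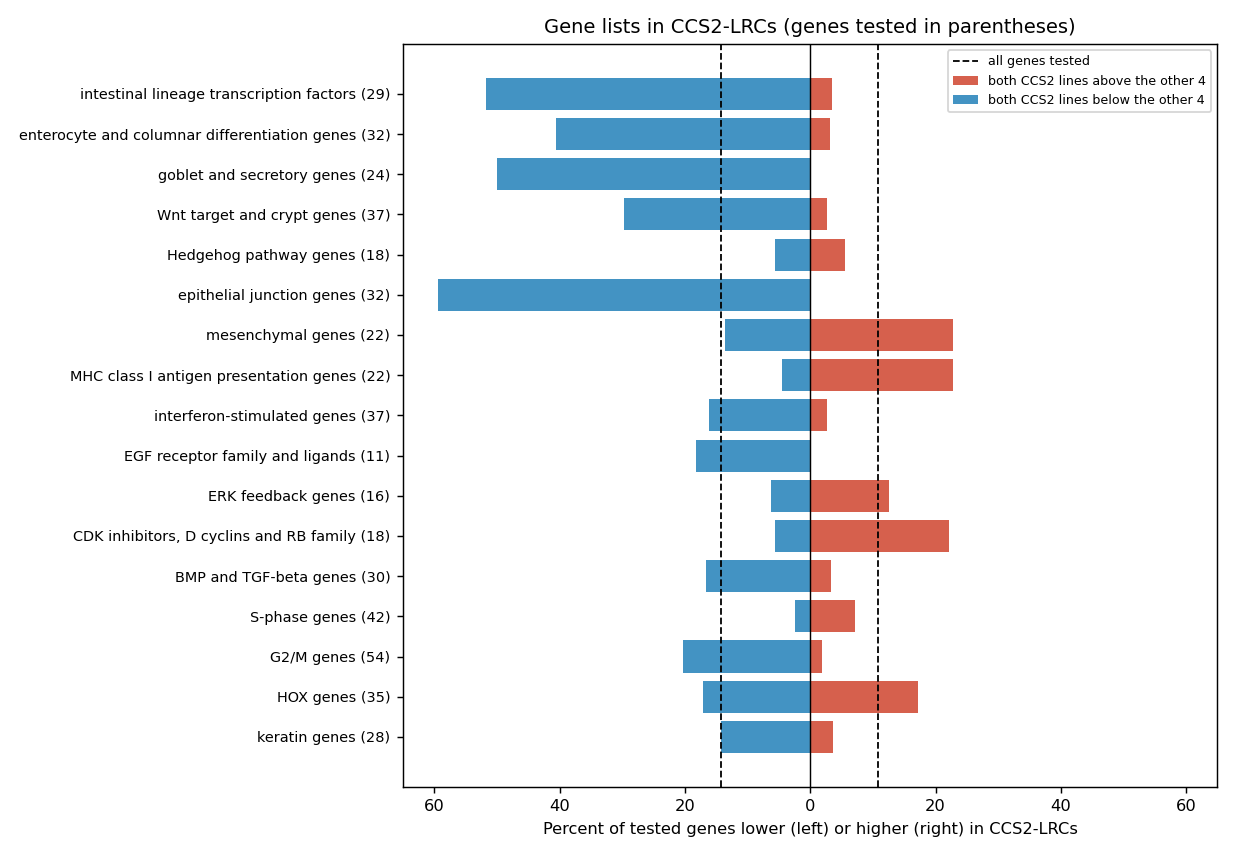
Percent of the tested genes of each list shown that lay below (left, blue) or above (right, red) all 4 other lines in both CCS2-LRC lines, with dashed lines at 14.2% and 10.8% for all genes tested. Junction, lineage factor and goblet genes reach 50% or more on the lower side, and of the lists shown the mesenchymal, MHC class I and CDK inhibitor lists reach 22.2% or more on the higher side.

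Most of these differences were also present in the non-LRCs. In non-LRCs of the same lines 1598 of 15779 genes (10.1%) were higher and 2205 (14%) lower by the same rule. Of the higher LRC calls tested in non-LRCs, 1196 were called in the same direction, 71.4% of the LRC list and 74.8% of the non-LRC list. For lower calls it was 1713 genes, 76.9% and 77.7%, and 3 genes were called in opposite directions. The libraries were separate, but the lines were the same, so the overlap is no independent check.

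What differed between LRCs and non-LRCs of one line was therefore compared between the CCS2 and the other lines. The difference of LRC effects, tested with edgeR on counts summed per line and population, passed for 14 of 16603 genes (0.0843%), all with a larger LRC-to-non-LRC ratio in the CCS2 lines, and for 0 in the lower direction. Before adjustment 1081 genes had p under 0.05 upward and 991 downward, and DESeq2 called 144 and 57. ZMAT3, an RNA-binding protein, was at 158 ± 14.9 CPM in RKO-LRCs and 59.1 ± 6.82 CPM in RKO non-LRCs, and at 86.2 ± 16.4 and 41.7 ± 7.52 CPM in SW48 (SD, n = 4). In the other lines its log2 change ranged from -0.13 to 0.17, which gave a difference of effects of 1.17 ± 0.13 (SE, adjusted p = 0.0196, edgeR). MDM2, a ubiquitin ligase, was at 326 ± 19.2 against 163 ± 16.6 CPM in RKO and 143 ± 12.4 against 79.5 ± 4.62 CPM in SW48, with changes of -0.13 to 0.27 elsewhere (0.88 ± 0.12 SE, adjusted p = 0.0442, edgeR). BTG2, an antiproliferative factor, was at 71 ± 14.1 against 24.7 ± 1.69 CPM in RKO and 133 ± 21.8 against 71 ± 13.3 CPM in SW48, and changed by -0.16 to 0.14 on the log2 scale elsewhere (1.25 ± 0.17 SE, adjusted p = 0.0442, edgeR). Counting the fit above and its alternatives, ZMAT3 passed in 14 of 19 settings, MDM2 in 12 and BTG2 in 11, and all 3 differences stayed positive. These settings include fits on 48 libraries, which take libraries as units, and a fit without a filter that passed many more genes. The tallies are therefore not a measure over lines. With lines as units, 0 genes passed without HT55 or without replicate 4.

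Several of the other genes that passed were at low levels in CCS2-LRCs. NECTIN4, an adhesion molecule, was at 20.9 ± 6.68 CPM in SW48-LRCs and 5.48 ± 1.7 CPM in SW48 non-LRCs, and at 1.21 ± 0.687 and 0.118 ± 0.144 CPM in RKO. CEACAM1 was at 1.36 against 0.355 CPM in SW48 and 0.332 against 0.136 CPM in RKO, and TSPAN8, a tetraspanin, at 7.37 against 2.98 CPM and 0.497 against 0.23 CPM, while HT55 held 584 CPM of CEACAM1 and 1754 CPM of TSPAN8 in LRCs. MME (neprilysin), ALDH3B2, HEPHL1 and ANKRD22 had, of the CCS2 pair, most of their counts in SW48. In RKO-LRCs they were at 0.144 CPM or less, and ALDH3B2 and HEPHL1 had no counts there. The log2 change of ALDH3B2 and HEPHL1 in RKO (0.00) lay below that of DLD1 (0.12 and 0.95). PLXNA2, GOLGA7B, ARRDC4 and TNS4 made up the rest, with ARRDC4 at a log2 change of 0.95 in both CCS2 lines and at most 0.24 in the others. The smallest p-values in the lower direction did not pass (adjusted p = 0.0595 for RGS3, BHLHE40 and CALB2, edgeR). RGS3, a regulator of G protein signaling, was at 63.7 ± 7.32 CPM in RKO-LRCs and 123 ± 12.8 CPM in RKO non-LRCs (log2 change -0.95). In SW48 it was at 16.3 ± 2.23 and 22 ± 5.19 CPM (-0.40), and it changed by 0.16 to 0.23 log2 units in the other 4 lines. CALB2 was near 0 in SW48 (0.0848 and 0.126 CPM). The number of genes passing was unstable, from 0 without HT55 or without replicate 4 to 377 without SW48.

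Of 54 G2/M genes, 11 (20.4%, against 14.2% of all genes) were lower in both CCS2-LRC lines and 1 (1.85%, against 10.8%) was higher. In non-LRCs 6 were lower and 2 higher, where 14% and 10.1% of all genes were called. When each library had to separate, 1 G2/M gene was lower and 0 higher in LRCs, with 5.67% of all genes lower. Of 42 S-phase genes 3 were higher and 1 lower (7.14% and 2.38%). TOP2A, the topoisomerase of dividing cells, was at 114 ± 44.5 CPM in RKO and 136 ± 77.9 CPM in SW48 against 208 to 480 CPM (SD, n = 4), a difference for which single libraries overlapped. CHAF1B, a chromatin assembly subunit, was higher, at 36 and 36.3 CPM against 9.54 to 23.3 CPM. The median LRC-minus-non-LRC change of G2/M genes was -0.54 log2 units in RKO and -0.49 in SW48, but DLD1, a CCS3 line, was at -0.50 too, and HT55, SW948 and HCT15 were at 0.01, 0.02 and 0.29. For S-phase genes it was -0.68 in RKO, -0.26 in SW48, -0.53 in DLD1 and -0.03 to 0.10 in the others. The lower G2/M level in LRCs was thus seen in 1 line outside CCS2 as well. The part of the cell cycle in the values of ZMAT3, MDM2 and BTG2 was not tested.

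**Figure D4:**
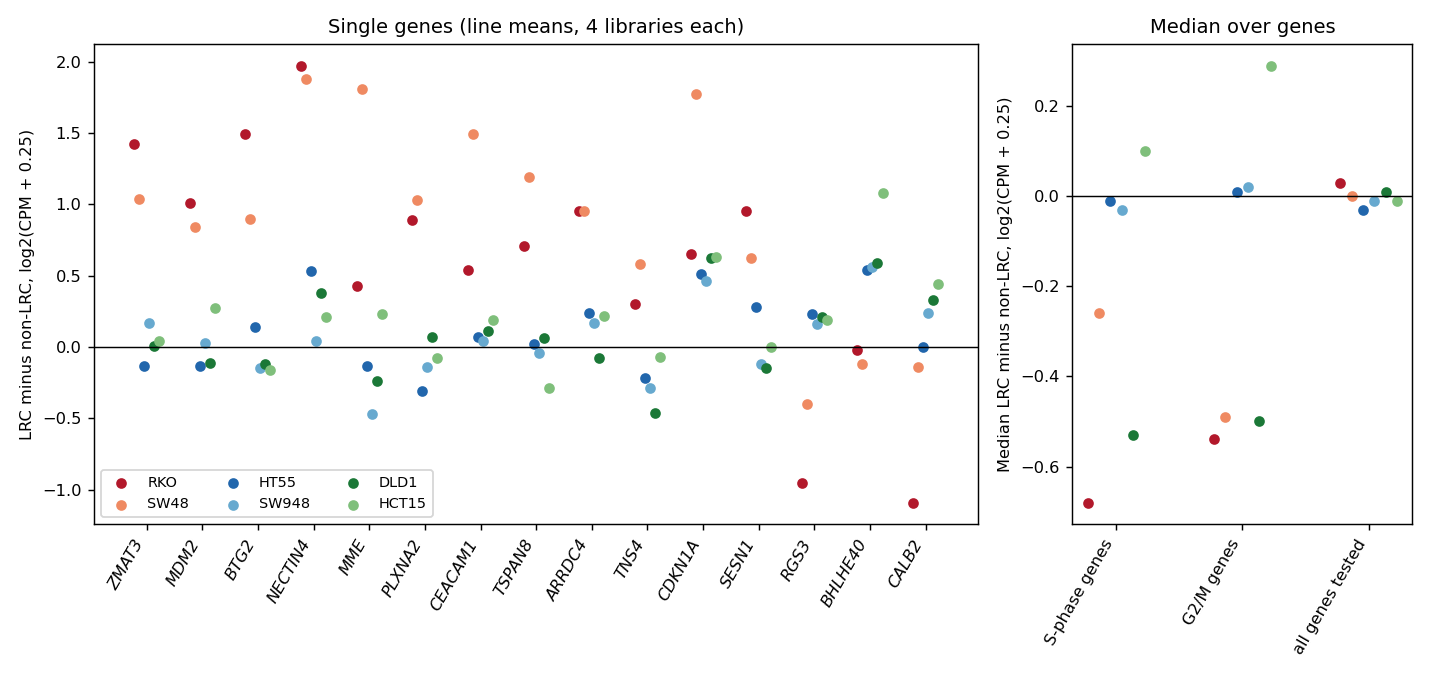
LRC minus non-LRC differences of line means on the log2(CPM + 0.25) scale, for single genes (left) and as the median over gene lists (right), with a point for each line. For ZMAT3, MDM2 and BTG2 both CCS2 lines (red and orange) lie above the 4 other lines, and for G2/M genes DLD1 (dark green, -0.50) sits with RKO (-0.54) and SW48 (-0.49).

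With the first promoter entry per gene, 11522 of the genes tested had a sequence, with a median of 26 CpG dinucleotides (letters CG, which read the same on both strands) in 300 bases, and 78.8% held at least 15, against 48.8% of all promoters in the table. All 1678 lower genes with a sequence had a median of 24, with 71.3% holding at least 15, and all 1210 higher genes a median of 27, with 86.1%. Lower genes with a gap of at least 1 log2 unit had a median of 17, and 54.3% of 341 held at least 15. Higher genes with such a gap had a median of 25, with 77% of 126. These are descriptions of sequence and carry no test.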

How the data were processed

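RNA sequencing was examined in 24 LRC and 24 non-LRC libraries of 6 CRC lines, grouped by the line and population in the labels, while subtypes were taken from the paper. The 16 unsorted DLD1 controls were not used. The values deposited are unnormalized read counts for 54127 Ensembl genes (hg19), and the submitters' processing notes name TopHat, HTSeq and DESeq without versions. Stranded counting is not stated, so antisense overlaps cannot be resolved. Reads outside genes were 5.47% to 11.3% of LRC libraries and were left out. Replicates were biological per the paper's methods, but subtypes differ between lines, so line means, not libraries, were compared. No 2 libraries were identical, and replicates differed by more than sampling noise (mean chi-square per gene 2.6 to 33).

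Genes were kept where 4 or more libraries held 10 counts. Counts were scaled by TMM, and log2 CPM used a prior count of 2. edgeR 4.0.16 in R 4.3.3 (quasi-likelihood test, Benjamini-Hochberg adjusted over all genes tested, threshold 0.05) was fitted to counts summed per line, and to sums per line and population for the difference of LRC effects. DESeq2 1.42.0 and limma 3.58.1 served as alternatives. The tests were run on simulated data first. S-phase and G2/M genes came from Seurat 5.3.0. Symbols and positions came from GENCODE on GRCh37.

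Members and lists were chosen with earlier results of these data known. Named genes were the 15 per direction with the largest gap among called genes reaching 3 log2 CPM, up to 4 called and 2 uncalled members of each list, the smallest p-values for LRC effects and genes central to the study. The rule first required the edgeR call too, which left 4 genes, and this was dropped after seeing the data. Genes named in passing were also chosen then. Some genes and lists are not reported here.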

Additional observations from a re-analysis of the deposited data

Results flagged for a closer look

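In 9 of 157 groups of 4 libraries examined, 1 library lay apart by Dixon's test of the gap against the range, close to the 1 in 20 that chance gives. NKX2-5 in SW48-LRC replicate 2 was the lowest, at 16.8 CPM against a median of 18.4 CPM in the other 3. KCTD12 in RKO-LRC replicate 2 was the highest, at 15.3 CPM against a median of 13.9 CPM in the other 3. RPSAP52 in SW48-LRC replicate 4 was the lowest, at 8.01 CPM against a median of 11 CPM in the other 3. OPRL1 in DLD1-LRC replicate 1 was the highest, at 1.99 CPM against a median of 1.38 CPM in the other 3. ACP3 in HCT15-LRC replicate 1 was the lowest, at 7.53 CPM against a median of 8.52 CPM in the other 3. QPCT in HT55-LRC replicate 3 was the lowest, at 18.1 CPM against a median of 31.4 CPM in the other 3. CDX2 in RKO-LRC replicate 2 was the lowest, at 16.8 CPM against a median of 17.7 CPM in the other 3. LGR5 in HT55-LRC replicate 3 was the highest, at 115 CPM against a median of 83 CPM in the other 3. AXIN2 in HT55-LRC replicate 2 was the highest, at 951 CPM against a median of 706 CPM in the other 3.

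The LRC effect differed between the CCS2 and the other lines in 14 genes (edgeR, adjusted p 0.0124 to 0.0442). The difference, CCS2 minus other, in the log2 ratio of LRCs to non-LRCs was 2.05 for MME, 1.17 for ZMAT3, 3.36 for ALDH3B2, 1.09 for PLXNA2, 1.25 for BTG2, 1.95 for GOLGA7B, 1.82 for NECTIN4, 0.88 for MDM2, 0.79 for ARRDC4, 3.04 for HEPHL1, 1.95 for ANKRD22, 1.28 for TSPAN8, 0.87 for TNS4 and 1.59 for CEACAM1, with both CCS2 lines at or above 0 in each.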

How the results depend on the processing

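Of the 109 named genes called by the line rule, 69 kept direction and call under those of the 18 settings that tested them. When a gap of at least 1 log2 unit was required, 36 lost the call. Genes removed by the filter of at least 10 counts in every library were not counted as losing the call. LRC line calls (4004 genes in all) became 2455 with at least 10 counts in every library, 1572 when all libraries had to separate and 677 with a gap of at least 1. Non-LRC calls (3803) became 2349, 1559 and 696. With 1 line left out they ranged from 4782 to 8836 in LRCs and 4424 to 8744 in non-LRCs, where fewer lines make the rule easier to meet, and with 1 replicate left out from 3791 to 3876 and 3616 to 3684. The 4 genes passing edgeR in LRCs became 25 without a filter, 0 with at least 10 counts in every library (which removes all 4 genes) and 0 with DLD1 and HCT15 merged, 1307 with DESeq2, 787 with limma voom and line as a random effect, and between 0 and 197 with 1 line or replicate left out (0 without SW948, DLD1 or HCT15, 4 higher genes without RKO, 197 without SW48, 10 or 11 without replicate 1, 2 or 3). The fits on 24 libraries, which take libraries as units, gave 12201 genes without and 12141 with the replicate block. The 14 genes for LRC effects became 1 without TMM, 1 with at least 10 counts in every library, 728 without a filter, 79 with DLD1 and HCT15 merged, 201 with DESeq2 and between 0 and 377 with 1 line or replicate left out (25 without RKO, 377 without SW48, 0 without HT55, 1 without SW948, 52 without DLD1, 2 without HCT15, and 34, 6 and 0 without replicates 1, 2 and 4). On 48 libraries they were 1781 without and 3250 with the replicate block. Replicate numbers did not pair samples across lines (mean r 0.002). LRC and non-LRC samples of one line with the same number had a mean r of 0.302 (-0.138 to 0.717). With other numbers it was -0.095 (-0.689 to 0.689). Samples of one line with the same number were thus more alike on average, and may have been paired. The fits on sums per line and population did not use such pairing. Without SW48 the difference of LRC effects was -0.0026 for ALDH3B2 and -0.72 for HEPHL1, as RKO-LRCs had no counts of either, and with 1 replicate left out they reached 3.67 and 3.44. The cause of the other changes was not tested. Genes below about 1 CPM rest on few counts, so differences among CCS2 libraries there were not detectable at this depth.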
